A study of Mus musculus with 69 samples.

Results

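The genes described here are 37 genes of the integrated stress response, the transcription factor ATF4 and genes known to act with it or under it. They were taken by symbol from the gene table of a study of edited mouse macrophages, where they are 37 of 56980 genes. The choice went by function and was made with earlier results of these data known. Counts were high enough to test 31 of the 37, among 12008 genes tested in all. Pycr1, Slc6a9, Stc2, Cth, Cbs and Bcat1 were too low to test.

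Macrophages were grown from wild-type mouse bone marrow in M-CSF, which makes marrow precursors into macrophages, and were frozen and thawed before editing. A guide RNA with Cas9 was aimed at 1 of 6 genes or, for the editing controls, at the Rosa26 locus, and RNA was taken 4 or 13 days later. Atp6v1a encodes a subunit of the proton pump that acidifies lysosomes. Npc1 exports cholesterol from lysosomes, Pik3c3 (VPS34) is the lipid kinase of endosomes and autophagy, Ctsd is the lysosomal protease cathepsin D, Grn encodes progranulin, and Trem2 is a lipid-sensing surface receptor of macrophages. The 14 groups, each 1 target on 1 day, hold 5 libraries, except Npc1 at day 4 with 4. All groups, the Rosa26 controls included, are wild-type cells that received Cas9 and a guide. Each biological replicate was pooled from 6 mice, so p-values describe the spread between pools and not between animals. Editing was done on populations of cells. Targeted messages stood at 16.5% to 85.5% of the Rosa26 level (the highest for Trem2 at day 13). These libraries read 3' ends, where a small insertion or deletion can leave the reads in place. The reason for the remaining message was not tested.

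The integrated stress response begins when a kinase phosphorylates the initiation factor eIF2. Most protein synthesis then slows, translation of the Atf4 message rises, and ATF4 protein switches on genes for making and importing amino acids, for charging tRNA and for ending the response. The 4 kinases sense unfolded protein in the endoplasmic reticulum (PERK, gene Eif2ak3), uncharged tRNA (GCN2, gene Eif2ak4), double-stranded RNA (PKR, gene Eif2ak2), and haem shortage or mitochondrial damage (HRI, gene Eif2ak1). The data here are messages. Phosphorylated eIF2 and ATF4 protein were not measured in the files analysed.

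ATF4 binds DNA with C/EBP proteins at a composite site, the C/EBP-ATF response element, and the members' promoters are shown for the letters of that site. Promoters of 250 bases before to 50 bases after a gene's start were taken from RefSeq on build GRCm38.p6, which held 34 of the 37 members and not Slc7a5, Eif4ebp1 or Cth. The core TGATGNAA, read on either strand (TTNCATCA on the other), was found in 9 of the 34, or 26.5%. Among 27025 genes with a promoter in the same table, 4.51% held it. A match is a string of letters and was not tested as a binding site. The 30 bases around each match follow, read along the gene's own strand, with the core in capitals. Of these 9 genes 8 were tested (not Pycr1), and 6 of the 8, namely Asns, Trib3, Chac1, Nupr1, Jdp2 and Slc1a4, were higher in Atp6v1a-targeted cells at day 13, a share much like the 77.4% of all tested members that is given below.

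Asns: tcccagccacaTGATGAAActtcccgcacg
Trib3: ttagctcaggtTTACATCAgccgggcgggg
Chac1: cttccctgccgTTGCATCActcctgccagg
Nupr1: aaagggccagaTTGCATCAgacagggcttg
Jdp2: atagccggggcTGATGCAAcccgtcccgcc
Slc1a4: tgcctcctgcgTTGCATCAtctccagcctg
Atf3: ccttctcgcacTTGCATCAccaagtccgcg
Vldlr: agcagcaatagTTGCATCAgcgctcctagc
Pycr1: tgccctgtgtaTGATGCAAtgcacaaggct

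In GRCm38.p6 these windows lie at chr6:7693214-7693243 (Asns, minus strand), chr2:152344028-152344057 (Trib3, minus), chr2:119351038-119351067 (Chac1, plus), chr7:126625562-126625591 (Nupr1, minus), chr12:85599372-85599401 (Jdp2, plus), chr11:20332699-20332728 (Slc1a4, minus), chr1:191183425-191183454 (Atf3, minus), chr19:27216809-27216838 (Vldlr, plus) and chr11:120643833-120643862 (Pycr1, minus). The core began 23 bases before the annotated start in Asns, 193 before it in Chac1 and 14 after it in Trib3. The same letters therefore sit at different distances from the start. The ATF/CRE site TGACGTCA, which reads the same on both strands, was found in 1 of the 34 promoters (2.94%, against 2.03% of genes), that of Ppp1r15a, 12 bases before its start. No member promoter held both motifs.

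Ppp1r15a: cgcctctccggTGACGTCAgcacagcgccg

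This window lies at chr7:45526262-45526291, minus strand, in GRCm38.p6. The ER stress element, a longer motif of the unfolded protein response searched by its published letters on both strands, was in 0 of the 34 promoters and in 0.137% of genes. That a motif is missing says only that its letters are not in this window.

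Libraries were made with a kit that tags the 3' end of each message and counts unique molecules. They held 2194566 to 4688285 estimated counts each, with a median of 3404743. A label marks 47 libraries as Regular and 22 as Low-input. The latter are 1 of the day 4 libraries (Trem2 replicate 1), all 5 of Trem2 at day 13, 4 of Pik3c3, 3 each of Atp6v1a (replicates 1 to 3), Npc1 and Ctsd, 2 of Grn and 1 of Rosa26 (replicate 5) at day 13. Low-input libraries differed from Regular libraries of the same group at 67% of all genes tested (34.9% higher and 32.1% lower) and at 21 of the 31 members, with 17 members higher and 4 lower. Fold changes below have that difference removed, and levels in CPM (counts scaled to the total of the library) keep it. The shares of targeted message given above are from CPM and keep it too. The 8 macrophage markers were present in all 69 libraries. Summed messages of 5 stromal genes reached 299 CPM in the Rosa26 libraries of day 13 and averaged 93.1 CPM there, above the other groups of that day, and results that use those controls are also given without replicates 2 and 5, where they were high.

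Atp6v1a-targeted cells at day 13 had the most members called among the 6 targets. Of the 31 tested members, 24 were higher than in Rosa26 cells and 0 were lower, which is 77.4% against 24.4% of all 12008 genes (12.8% higher and 11.6% lower). The median member was 0.75 higher on the log2 scale, against 0.02 for all genes. By role, 11 of 13 transcription factors and feedback regulators, 5 of 9 tested enzymes of amino acid and folate metabolism, 5 of 5 tested amino acid transporters and 3 of 4 tested other products were higher. Genes are called higher or lower where edgeR's quasi-likelihood test gave a p under 0.05 after Benjamini-Hochberg adjustment over all genes tested.

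**Figure D1:**
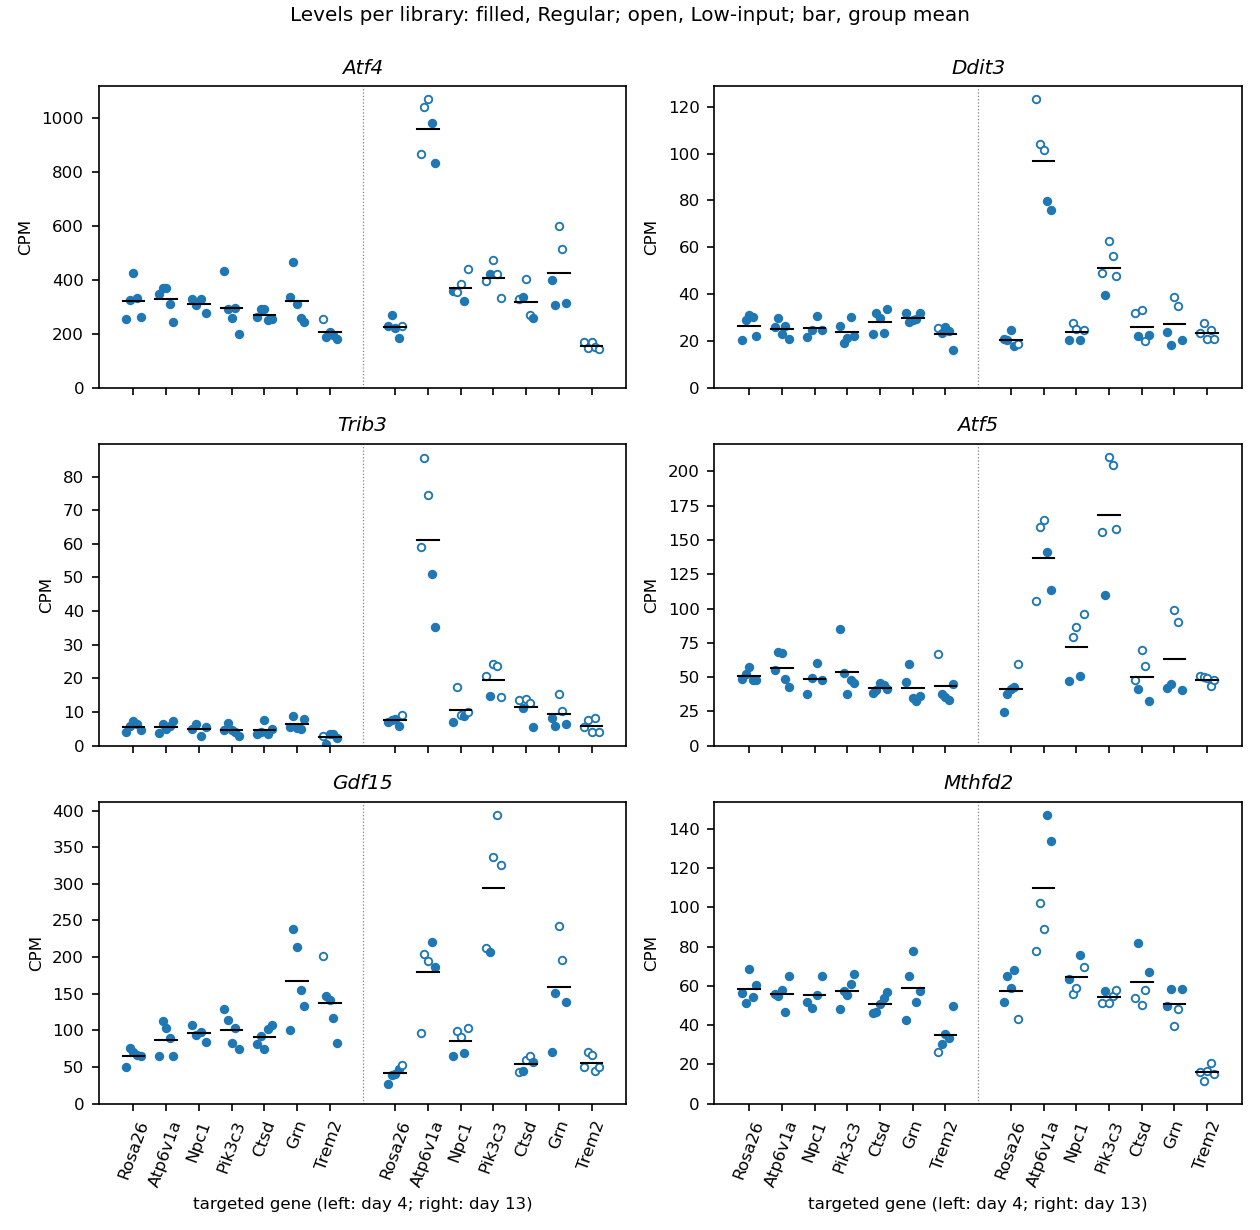
Level in CPM (vertical axis) of Atf4, Ddit3, Trib3, Atf5, Gdf15 and Mthfd2 in each library, by targeted gene at day 4 (left of each panel) and day 13 (right). Filled points are Regular libraries, open points Low-input libraries and bars are group means. Atf4 ran from 832 to 1073 CPM in Atp6v1a-targeted cells at day 13 and from 186 to 270 CPM in Rosa26 cells of that day.

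Among the regulators, Atf4 stood at 229, 270, 220, 186 and 231 CPM in the Rosa26 libraries (replicates 1 to 5) and at 866, 1043, 1073, 983 and 832 CPM in the Atp6v1a libraries. The groups were far apart, and every Atp6v1a library was above every control. The log2 change was 1.93 ± 0.15 (SE; adjusted p = 2.09e-17), a 3.81-fold rise. Ddit3 encodes CHOP, a factor that ATF4 induces and that can promote cell death when stress lasts. It stood at 20.9, 20.4, 24.7, 17.8 and 18.8 CPM in Rosa26 and at 124, 104, 101, 79.6 and 75.9 CPM in Atp6v1a libraries. Every targeted library was above every control, and the change was 2.02 ± 0.14 (adjusted p = 1.73e-18). Trib3 is a pseudokinase that binds ATF4 and dampens its activity. It stood at 7.08, 7.68, 8.001, 5.92 and 9.15 CPM in Rosa26 and at 59.1, 85.5, 74.5, 50.9 and 35.3 CPM in Atp6v1a libraries. These groups did not overlap either, and Trib3 changed by 2.68 ± 0.20 (adjusted p = 1.08e-17). Atf5, a related factor whose message is translated under the same control as Atf4, stood at 24.6, 37.9, 41.3, 42.8 and 59.6 CPM in Rosa26 and at 105, 159, 165, 141 and 113 CPM in Atp6v1a libraries. It was higher in each targeted library than in any control and changed by 1.44 ± 0.15 (adjusted p = 9.62e-12).

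The other regulators that rose were Nupr1 (1.71 ± 0.26), a small chromatin protein induced by stress, Ppp1r15a (1.14 ± 0.26), the GADD34 subunit that leads a phosphatase back to eIF2 and ends the response, Jdp2 (0.75 ± 0.19), Eif4ebp1 (0.67 ± 0.13), which encodes an inhibitor of cap-dependent translation, Sesn2 (0.51 ± 0.17), Cebpg (0.44 ± 0.12), a dimer partner of ATF4, and Cebpb (0.28 ± 0.10). Atf3, another bZIP factor often induced downstream of ATF4, stood at 100 to 146 CPM in Rosa26 and at 95.7 to 158 CPM in Atp6v1a libraries. Its change was -0.01 ± 0.17 (adjusted p = 0.965). Ddit4, an inhibitor of mTORC1, stood at 2.73 to 6.80 CPM in Rosa26 and 3.01 to 3.51 CPM in Atp6v1a libraries, a change of -0.64 ± 0.29 that did not pass the test (adjusted p = 0.0971).

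Of the enzymes, Mthfd2, which handles folate carbon units in mitochondria, stood at 51.8, 65.1, 59.0, 67.9 and 42.9 CPM in Rosa26 and at 78.0, 102, 89.2, 147 and 134 CPM in Atp6v1a libraries. The groups did not overlap. Mthfd2 changed by 1.04 ± 0.12 (adjusted p = 9.45e-11). Asns, which makes asparagine and carries one of the cores printed above, stood at 9.69, 15.1, 7.00, 16.4 and 21.4 CPM in Rosa26 and at 45.8, 52.7, 43.3, 31.3 and 38.3 CPM in Atp6v1a libraries. Again each targeted library was above each control, and the change was 1.36 ± 0.17 (adjusted p = 1.91e-09). Phgdh, the first enzyme of serine synthesis, rose by 1.13 ± 0.21, mitochondrial Shmt2 by 0.68 ± 0.18 and the alanine aminotransferase Gpt2 by 0.45 ± 0.15. The next enzymes of serine synthesis did not pass the test. Psat1 had a log2 difference of -0.06 ± 0.14 (adjusted p = 0.815) and Psph of 0.21 ± 0.15 (adjusted p = 0.329). Raw Psat1 levels were divided by protocol rather than by target. The 3 Low-input Atp6v1a libraries held 73.5, 89.1 and 95.8 CPM beside 86.7 CPM in the Low-input Rosa26 library, and the 2 Regular ones held 43.0 and 36.6 CPM beside 43.7 to 49.2 CPM in Rosa26. Aldh18a1 (0.65 ± 0.30, adjusted p = 0.101) and Mthfd1l (0.47 ± 0.22, adjusted p = 0.111) did not pass.

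All 5 tested amino acid transporters were higher. Slc38a2, which imports small neutral amino acids with sodium, stood at 88.0, 117, 110, 115 and 168 CPM in Rosa26 and at 189, 291, 284, 296 and 261 CPM in Atp6v1a libraries. The groups did not overlap, and Slc38a2 changed by 1.00 ± 0.13 (adjusted p = 6.87e-09). Slc7a5, the light chain of a large neutral amino acid exchanger, rose by 1.76 ± 0.25, and its heavy chain Slc3a2 by 0.59 ± 0.12. The arginine and lysine carrier Slc7a1 rose by 1.37 ± 0.20 and Slc1a4, an exchanger of alanine and serine, by 0.84 ± 0.31 (adjusted p = 0.0405).

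Of the remaining products, Gdf15, a secreted hormone of the stress response, stood at 27.2, 39.2, 41.0, 47.4 and 52.9 CPM in Rosa26 and at 95.7, 204, 194, 221 and 186 CPM in Atp6v1a libraries. The lowest of these, replicate 1, still exceeded every control. Gdf15 changed by 1.94 ± 0.21 (adjusted p = 9.12e-12). Chac1, which breaks down glutathione, stood at 0.746, 1.06, 0.667, 0.456 and 1.05 CPM in Rosa26 and at 12.3, 12.9, 9.08, 4.39 and 4.01 CPM in Atp6v1a libraries. At this depth the controls held only a few Chac1 counts each. Chac1 changed by 2.89 ± 0.42 (adjusted p = 1.22e-07), with the 3 Low-input libraries higher than the 2 Regular ones. The filter on low counts asks for enough counts in as many libraries as the smallest group holds, which the Atp6v1a libraries alone supplied. The testing of Chac1 was thus not independent of its high level there, and its call and its change between days add no separate support. Xpot, the tRNA exporter, rose by 0.60 ± 0.10, and Vldlr, a lipoprotein receptor, did not pass the test (0.23 ± 0.26, adjusted p = 0.577).

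The 250 bases before the annotated starts of Chac1 (chr2:119350992-119351241, plus strand) and Asns (chr6:7693210-7693459, minus strand) in GRCm38.p6 are printed as members with the core far from and near to the start, with the core in capitals.

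Chac1: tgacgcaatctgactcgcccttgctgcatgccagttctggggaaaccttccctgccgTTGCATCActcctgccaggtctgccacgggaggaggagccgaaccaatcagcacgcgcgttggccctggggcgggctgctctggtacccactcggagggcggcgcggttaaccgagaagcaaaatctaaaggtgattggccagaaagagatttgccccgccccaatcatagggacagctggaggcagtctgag
Asns: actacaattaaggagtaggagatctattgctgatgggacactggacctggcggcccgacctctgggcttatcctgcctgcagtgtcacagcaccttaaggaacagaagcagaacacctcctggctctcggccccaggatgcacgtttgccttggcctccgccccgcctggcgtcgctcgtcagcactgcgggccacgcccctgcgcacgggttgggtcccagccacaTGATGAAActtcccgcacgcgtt

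The Atp6v1a result was compared within each library protocol. Among Regular libraries, 22 members were higher and 0 lower, beside 2067 of all genes called, and among Low-input libraries 12 were higher and 0 lower, beside 895 of all genes. With all libraries 2927 of 12008 genes were called. The Low-input libraries include only 1 of Rosa26. In this and the other comparisons within a protocol the spread comes from all groups of that protocol, and a library that is alone in its group is assumed to vary like the others, so the number of calls there is no check by replicates. Atf4 changed by 1.91 in Regular and 2.08 in Low-input libraries, Ddit3 by 1.80 and 2.52, and Trib3 by 2.48 and 2.97. Without Rosa26 replicates 2 and 5, 22 members were higher and 0 lower, beside 2310 of all genes called. Of the 24 calls, 20 held with any single library of the 2 groups left out, and Slc1a4, Cebpb, Gpt2 and Sesn2 lost theirs in some of these fits. The macrophage markers moved with this comparison, 6 of 8 being lower and 1 higher (Cd68, 0.28), and all 3 tested stromal markers were lower (Col1a1 -6.22). The neutrophil marker S100a8 was higher (1.99), and the lymphocyte marker Ighm (-1.61), the erythroid marker Hbb-bs (-1.53) and 3 of 15 brain-cell messages were lower. In RNA from whole cultures, fewer cells of a type and less RNA per cell cannot be told apart, and the part of these markers in the result was not tested.

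At day 4 no member was called in Atp6v1a-targeted cells, where 0.00833% of all genes were called (edgeR, 0% higher and 0.00833% lower), and 1 member had an unadjusted p under 0.05. Atf4 stood at 257, 328, 425, 335 and 263 CPM in Rosa26 and at 349, 370, 371, 310 and 244 CPM in Atp6v1a libraries of day 4. The groups overlapped, with a change of 0.03 ± 0.14. The difference was -0.09 ± 0.14 for Ddit3 and 0.41 ± 0.20 for Gdf15, neither past the test. The difference between the days was tested directly. The effect of Atp6v1a targeting was larger at day 13 for 18 members and smaller for 0, against 5.56% and 5.81% of all genes (11.4% together). It grew by 2.11 ± 0.20 for Ddit3 (adjusted p = 2.38e-12), by 1.90 ± 0.20 for Atf4 (adjusted p = 4.99e-11) and by 2.69 ± 0.32 for Trib3 (adjusted p = 2.94e-09).

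**Figure D2:**
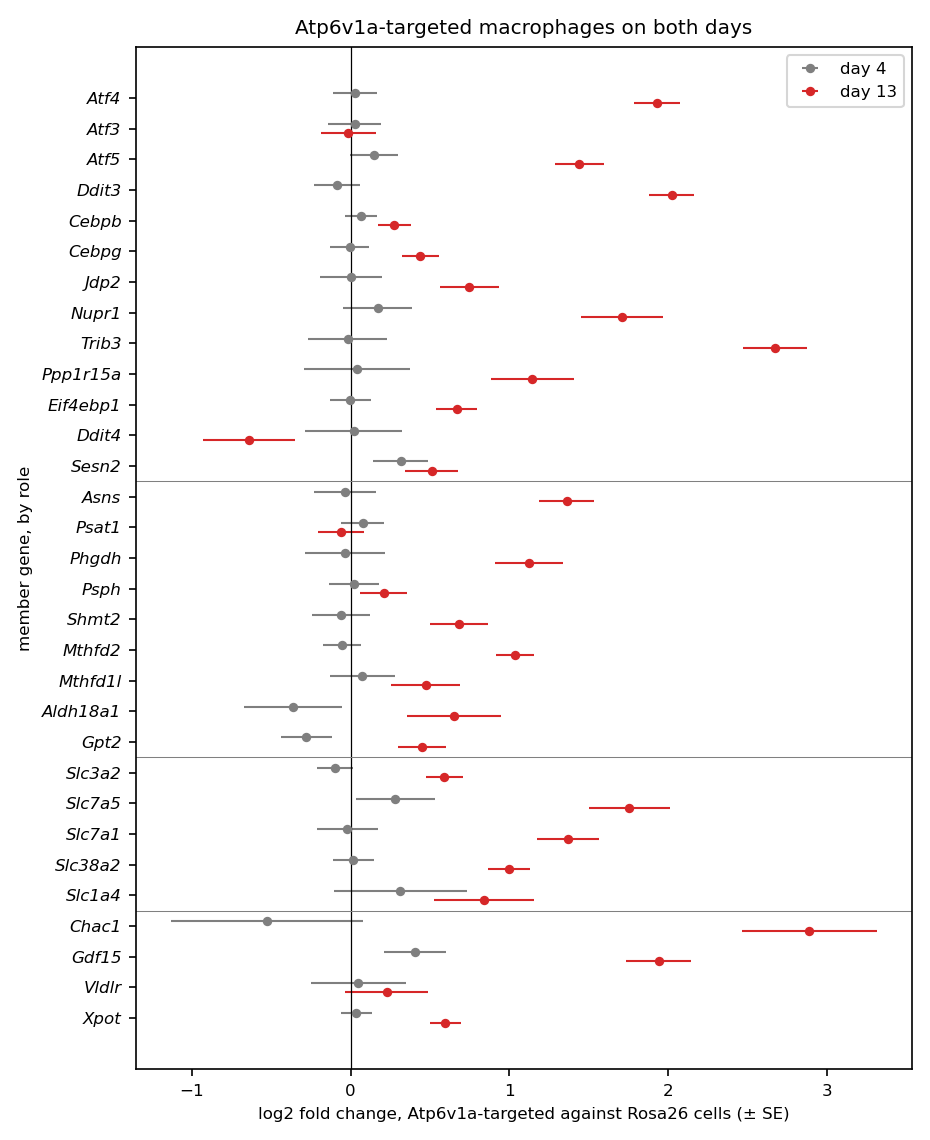
Log2 fold change ± SE of the tested members in Atp6v1a-targeted against Rosa26 cells at day 4 and at day 13. At day 4 no member was called, and at day 13 the change was 1.93 ± 0.15 for Atf4 and 2.02 ± 0.14 for Ddit3.

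Other genes of the pathway were read from lists beside the members. In Atp6v1a-targeted cells at day 13, 24.4% of all genes were called (12.8% higher and 11.6% lower). Of 20 cytosolic aminoacyl-tRNA synthetases, the enzymes that charge tRNA, 14 were higher and 1 (Qars, -0.27) was lower in Atp6v1a-targeted cells at day 13, with a median change of 0.53. The seryl enzyme Sars rose by 1.39 ± 0.10 (adjusted p = 7.76e-19), Cars by 0.97, Tars by 0.82 and Rars by 0.80. Of 15 tested mitochondrial synthetases, 0 were higher and 1 (Lars2, -1.30) was lower. Of 11 tested further genes reported as ATF4 targets, 9 were higher, with Pck2, a mitochondrial enzyme that makes phosphoenolpyruvate, up by 1.61 ± 0.12 (adjusted p = 2.58e-18), the ER oxidase Ero1a by 0.87, the autophagy receptor Sqstm1 by 0.75 and Herpud1 by 0.75, while Klhl24 fell by 0.40. Of 9 mitochondrial chaperones and proteases, 5 were higher, among them Hspa9 (1.02 ± 0.08, adjusted p = 4.3e-17), Lonp1 (0.66) and Hspd1 (0.49). Of 15 chaperones of the endoplasmic reticulum, 7 were higher and 0 lower, among them Hspa5, which encodes BiP (0.61 ± 0.08, adjusted p = 2.46e-08), and Calr (0.44).

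The genes that set eIF2 phosphorylation were read as another list. Of 17 eIF2 kinases, phosphatase subunits, eIF2B subunits and related genes, 5 were higher and 0 lower at day 13 in Atp6v1a-targeted cells. Of all genes 24.4% were called there (12.8% higher and 11.6% lower). Ppp1r15b, the constitutive counterpart of GADD34, rose by 0.46 ± 0.14 (adjusted p = 0.0101). Dele1, which relays mitochondrial damage to HRI, rose by 0.48 and Impact, a GCN2 inhibitor, by 0.34. None of the 4 kinase messages passed the test. Their changes were -0.47 for Eif2ak1 (adjusted p = 0.0708), -0.17 for Eif2ak2, 0.41 for Eif2ak3 (adjusted p = 0.21) and 0.13 for Eif2ak4. These are message levels, and kinase activity was not measured.

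**Figure D3:**
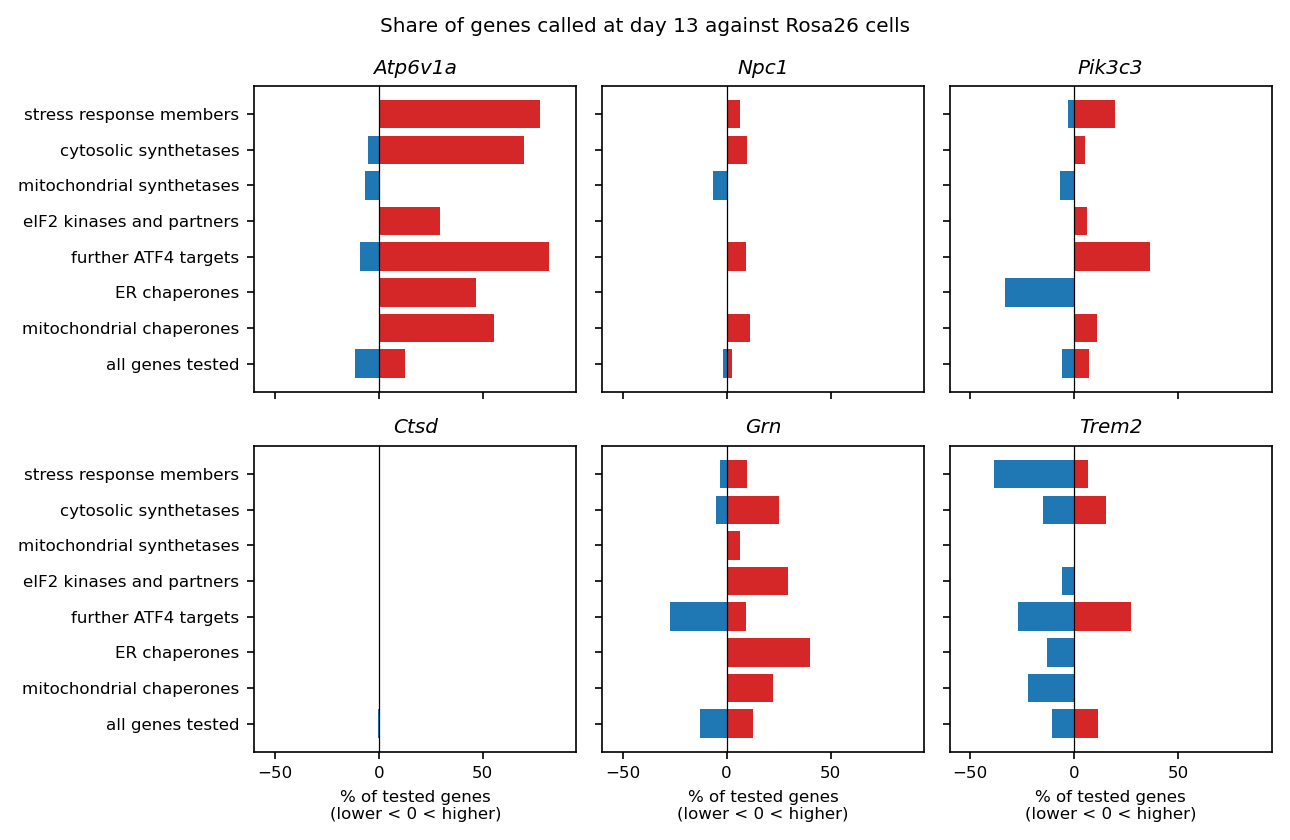
Share of the tested genes in each list, and among all genes, that was called higher or lower than in Rosa26 cells at day 13, for the 6 targeted genes. In Atp6v1a-targeted cells 24 of 31 members and 14 of 20 cytosolic synthetases were higher.

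Pik3c3-targeted cells at day 13 raised a smaller set. Of the 31 tested members, 6 were higher and 1 lower, or 22.6% against 13.2% of all genes (7.11% higher and 6.1% lower). Gdf15 stood at 212, 206, 336, 394 and 326 CPM, against 27.2 to 52.9 CPM in Rosa26. No library overlapped, and the change of 2.61 ± 0.22 (adjusted p = 1.16e-15) was 6.12-fold. Atf5 stood at 156, 110, 211, 204 and 158 CPM, against 24.6 to 59.6 CPM in Rosa26, again without overlap, and changed by 1.64 ± 0.16 (adjusted p = 7.25e-13). Ddit3 stood at 49.2, 39.8, 62.8, 56.3 and 47.8 CPM and Atf4 at 395, 421, 475, 422 and 332 CPM. Both lay above every Rosa26 library, with changes of 1.09 ± 0.15 (Ddit3, adjusted p = 4.72e-08) and 0.73 ± 0.15 (Atf4, adjusted p = 0.000156). Trib3 rose by 1.00 ± 0.22 (adjusted p = 0.000517), from 5.92 to 9.15 CPM in Rosa26 to 14.4 to 24.4 CPM. Nupr1 rose by 1.07 ± 0.28 (adjusted p = 0.00411) but not past the test without Rosa26 replicates 2 and 5 (0.87, adjusted p = 0.104). Those controls left out, 5 members were higher and 1 lower, beside 1193 of all genes called.

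The member that fell was Psat1, at 40.2, 25.2, 32.1, 30.6 and 40.5 CPM in Pik3c3-targeted cells against 43.7 to 86.7 CPM in Rosa26. The groups did not overlap, and Psat1 fell by 1.08 ± 0.16 (adjusted p = 1.23e-07). Phgdh, Psph and the 5 tested transporters were not called. Slc6a9, the transporter too low to test, had its highest group mean in these cells (2.715 CPM, against 0.1796 CPM in the lowest group). Each protocol alone has 1 library on one side, 1 of Pik3c3 among the Regular and 1 of Rosa26 among the Low-input libraries, and that library is assumed to vary like the other groups. Under that assumption 4 members were higher and 1 lower in each, beside 454 (Regular) and 401 (Low-input) of all genes, and the changes of Trib3 (1.01 and 1.24) and Nupr1 (1.36 and 0.89) did not pass the test.

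At day 4 no member was called in Pik3c3-targeted cells (0.175% of all genes were, edgeR, 0.117% higher and 0.0583% lower) and 2 members had an unadjusted p under 0.05. The difference was -0.10 ± 0.14 for Atf4, -0.15 ± 0.15 for Ddit3 and 0.64 ± 0.20 for Gdf15 (adjusted p = 0.263). The change of effect between the days passed the test for 6 members, 5 upward and 1 downward, against 6.19% of all genes (3.61% upward and 2.58% downward). It was 1.97 ± 0.29 for Gdf15 (adjusted p = 8.64e-07), 1.53 for Atf5 (adjusted p = 6.02e-07), 1.27 for Trib3, 1.24 ± 0.21 for Ddit3, 0.83 ± 0.20 for Atf4 (adjusted p = 0.00432) and -1.04 for Psat1.

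Compared directly at day 13, 21 members were higher and 1 lower in Atp6v1a-targeted than in Pik3c3-targeted cells, against 9.31% and 9.19% of all genes (18.5% together). Trib3 differed by 1.67 ± 0.17, Atf4 by 1.20 ± 0.14 (adjusted p = 3.06e-10), Asns by 1.20, Psat1 by 1.02 and Ddit3 by 0.93 ± 0.12 (adjusted p = 1.7e-08). Gdf15 went the other way and was lower in Atp6v1a-targeted cells by 0.67 ± 0.19 on the log2 scale (-0.67, adjusted p = 0.00569). Among Regular libraries, which hold only 1 Pik3c3 library, the median member difference was 0.79 (0.64 with all libraries). The further lists were read in the same way. Of all genes, 13.2% were called in Pik3c3-targeted against Rosa26 cells of day 13 (7.11% higher and 6.1% lower). In Pik3c3-targeted against Rosa26 cells, 0 of 15 ER chaperones were higher and 5 were lower (Manf -0.56, Calr -0.44, Pdia6 -0.31 and Hspa5 -0.25 among them), and of 20 cytosolic synthetases 1 was higher (Sars, 0.51). Of 11 further ATF4 targets 4 were higher, led by the cystine importer Slc7a11 (3.64 ± 0.23, adjusted p = 7.45e-21) and Gadd45a (1.77). Macrophage markers were lower for 5 of 8 and higher for 2. All 3 tested stromal markers (Col1a1 -4.23, Col1a2 -3.43 and Sparc -2.20) and the erythroid marker Hbb-bs (-2.68) were lower, and the neutrophil marker S100a8 was higher (2.15, adjusted p = 9.03e-06). The part of these markers in the result was not tested.

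**Figure D4:**
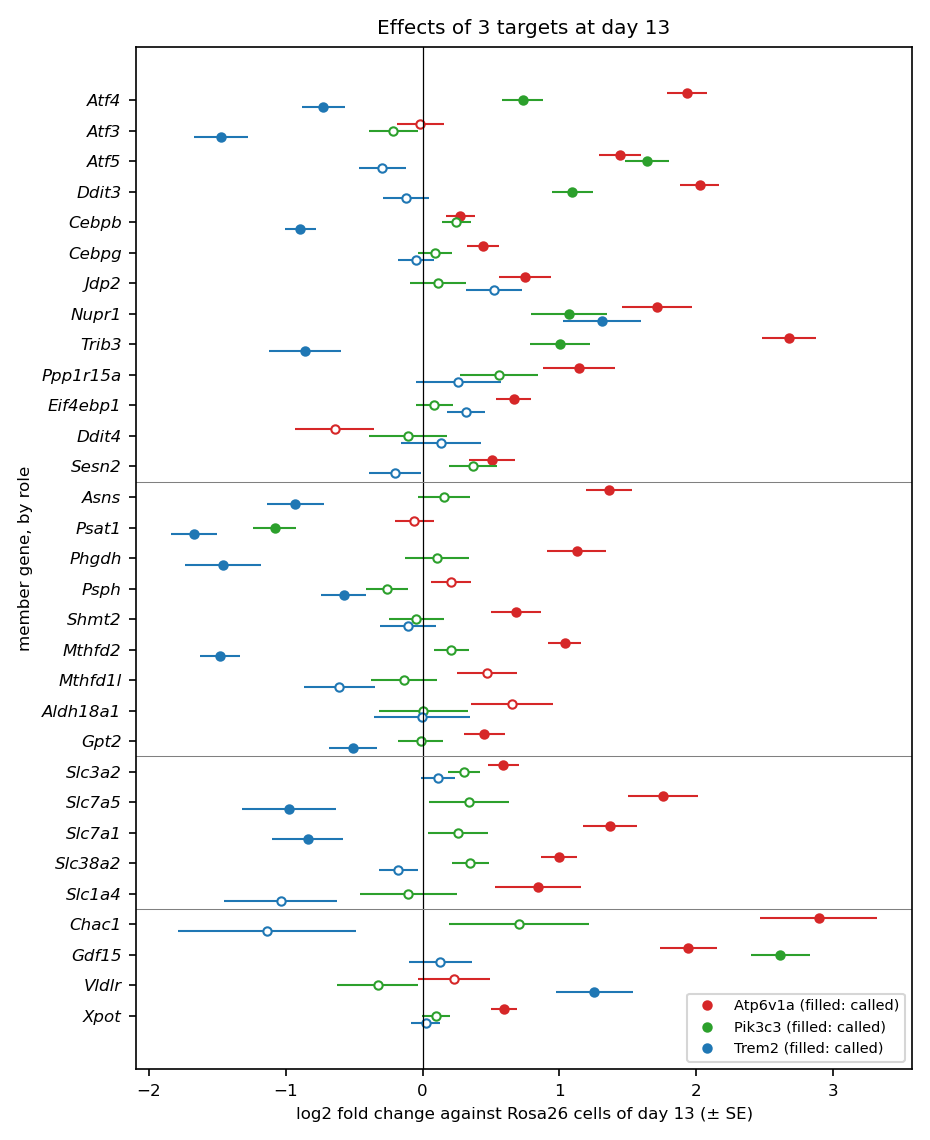
Log2 fold change against Rosa26 cells at day 13 of each tested member in Atp6v1a-, Pik3c3- and Trem2-targeted cells, with filled points for calls at an adjusted p under 0.05. The log2 value was 1.94 with Atp6v1a, 2.61 with Pik3c3 and 0.13 (not called) with Trem2 for Gdf15, and 1.04 with Atp6v1a and -1.48 with Trem2 for Mthfd2.

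Grn-targeted cells raised Atf4 and Gdf15 at day 13 with little else of the set. Of the 31 members 3 were higher and 1 lower, 12.9% against 25.2% of all genes (12.5% higher and 12.7% lower). Gdf15 stood at 70.3, 152, 242, 196 and 139 CPM, above every Rosa26 library, and changed by 1.89 ± 0.21 (adjusted p = 4.59e-11). Atf4 stood at 399, 309, 600, 513 and 316 CPM, also above every Rosa26 library. The highest 2 values are the Low-input libraries, and the change of 0.89 ± 0.14 (adjusted p = 1.49e-06) was 0.67 within Regular and 1.34 within Low-input libraries, the latter against 1 Rosa26 library. Atf5 rose by 0.49 ± 0.16 (adjusted p = 0.0155), a call lost without Rosa26 replicate 1 or without Grn replicate 3. Ddit3 stood at 23.8, 18.2, 38.9, 35.1 and 20.4 CPM, overlapped Rosa26 and did not pass (0.36 ± 0.15, adjusted p = 0.0719). Vldlr fell by 1.27 ± 0.31 (adjusted p = 0.00102), from 5.96 to 7.16 CPM in Rosa26 to 1.11 to 5.26 CPM. Without Rosa26 replicates 2 and 5, 2 members were higher and 1 lower, beside 2234 of all genes called. In these cells 5 of 17 genes of the eIF2 list, 5 of 20 cytosolic synthetases and 6 of 15 ER chaperones were higher, and the macrophage markers were lower for 5 of 8 and higher for 1 (Cd68, 0.25). All 3 tested stromal markers (Col1a1 -5.31) and all 3 erythroid markers (Hba-a2 -3.50) were lower, as was Ighm (-0.79), and S100a8 was higher (1.63). Brain-cell messages, part of a marker list kept as a check, were lower for 11 of 15 tested, with 118 CPM in sum against 305 CPM in Rosa26. The part of all these markers in the result was not tested.

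At day 4 Grn targeting raised Gdf15 and lowered Cebpb, 2 of 31 members (6.45%) against 8.04% of all genes (4.45% higher and 3.6% lower). Gdf15 stood at 49.6, 75.7, 70.9, 66.2 and 65.5 CPM in Rosa26 and at 100, 238, 213, 155 and 133 CPM with Grn. The groups did not overlap, and the change was 1.36 ± 0.19 (adjusted p = 1.24e-06). Cebpb, a bZIP factor of macrophage activation, stood at 117, 113, 135, 112 and 154 CPM in Rosa26 and at 65.9, 91.6, 90.3, 98.0 and 89.2 CPM with Grn, and fell by 0.53 ± 0.10 (adjusted p = 0.000435). Atf4 (0.02 ± 0.14) and Ddit3 (0.18 ± 0.14) did not pass the test. The effect on Atf4 was larger at day 13 by 0.87 ± 0.20 (adjusted p = 0.00141) and that on Atf5 by 0.76 (adjusted p = 0.0172), the 2 members called of 31, against 10.3% of all genes (4.74% upward and 5.6% downward). Among Regular libraries neither of these passed (Atf4 0.64, adjusted p = 0.0536, and Atf5 0.56, adjusted p = 0.159), and the member called there was Phgdh, lower (-1.08, adjusted p = 0.0335). The change in the Gdf15 effect did not pass (0.53 ± 0.28, adjusted p = 0.239). Brain-cell messages summed to 278 CPM in Grn-targeted and 147 CPM in Rosa26 cells at day 4, with 11 of 15 higher. All 3 erythroid markers were higher as well (5.11- to 8.80-fold), and 5 of 8 macrophage markers (Csf1r -0.71, Cd14 -0.55, Adgre1 -0.55, Fcgr1 -0.46 and Cd68 -0.27) and Ighm (-0.85) were lower. The part of these markers in the result was not tested.

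In Npc1-targeted cells at day 13, Atf4 and Gdf15 were the members called, 2 higher and 0 lower (6.45% against 4.46% of all genes, 2.71% higher and 1.76% lower). Atf4 stood at 358, 357, 384, 320 and 440 CPM, above every Rosa26 library, and changed by 0.58 ± 0.14 (adjusted p = 0.00851). Gdf15 stood at 64.9, 98.7, 91.3, 69.7 and 103 CPM, also above them, and changed by 0.85 ± 0.21 (adjusted p = 0.0089). The Atf4 call was lost without Rosa26 replicate 5, and within the protocols its change was 0.56 (Regular, adjusted p = 0.166) and 0.79 (Low-input, against 1 Rosa26 library, adjusted p = 0.11). Without Rosa26 replicates 2 and 5 the Gdf15 change of 0.86 had an adjusted p of 0.0522. Ddit3, at 20.3 to 27.6 CPM, differed by 0.01 ± 0.15 and did not pass. All 3 tested stromal markers were lower (Col1a1 -5.66, Col1a2 -4.89 and Sparc -2.66), as were Ighm (-0.87) and 2 of 8 macrophage markers (Adgre1 -0.49 and Lyz2 -0.48), and their part in the result was not tested. At day 4, 0 members were called with Npc1 (edgeR, 3 at an unadjusted p under 0.05, against 0.00833% of genes called, 0% higher and 0.00833% lower), and 0 in the change between the days, where 5 had an unadjusted p under 0.05 and 0.2% of genes were called (0.0833% upward and 0.117% downward).

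In Ctsd-targeted cells 0 members were called at day 4 (0.125% of genes, 0.05% higher and 0.075% lower, edgeR, 3 members at an unadjusted p under 0.05) and 0 at day 13 (0.2% of genes, 0.00833% higher and 0.192% lower, 4 members). Atf4 stood at 328, 338, 404, 270 and 261 CPM at day 13, a difference of 0.38 ± 0.14 (adjusted p = 0.368). The difference was 0.16 ± 0.15 for Ddit3 (adjusted p = 0.814) and for Gdf15 it was 0.20 ± 0.22 (adjusted p = 0.836). DESeq2 called 0 members in both comparisons. All 3 tested stromal markers were lower with Ctsd at day 13 (Col1a1 -6.93, Col1a2 -4.58 and Sparc -2.46). The part of these markers in the result was not tested. In the change of effect between the days 0 members were called, 5 having an unadjusted p under 0.05, beside 0.00833% of genes called (0% upward and 0.00833% downward). Setting Atp6v1a against each of these directly at day 13, 25 members were higher and 0 lower than with Npc1 (20% of all genes called, 10.4% higher and 9.64% lower), 22 higher and 1 lower than with Ctsd (23%, 12% and 11%) and 25 higher and 0 lower than with Grn (19.7%, 10% and 9.68%). Atf4 was higher with Atp6v1a by 1.35, 1.55 and 1.04 in that order. Gdf15 differed by 0.05 ± 0.18 between Atp6v1a- and Grn-targeted cells (adjusted p = 0.892). These comparisons share the Atp6v1a libraries.

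Trem2-targeted cells moved the members mostly downward on both days. At day 13, 2 were higher and 12 lower, 45.2% against 22.2% of all genes (11.3% higher and 10.9% lower), with a median change of -0.29. Psat1 stood at 27.9, 15.7, 23.6, 28.8 and 26.8 CPM, below the 43.7 to 86.7 CPM of Rosa26, and fell by 1.67 ± 0.17 (adjusted p = 8.92e-13). Mthfd2 stood at 16.3, 11.4, 16.9, 20.8 and 15.0 CPM, below the 42.9 to 67.9 CPM of Rosa26, and fell by 1.48 ± 0.15 (adjusted p = 1.26e-12). Cebpb stood at 78.5, 86.4, 76.0, 82.6 and 86.2 CPM against 104 to 169 CPM and fell by 0.89 ± 0.11 (adjusted p = 4.25e-09). In all of these the groups did not overlap. Atf3 stood at 48.4, 32.2, 38.9, 47.6 and 42.9 CPM against 100 to 146 CPM and fell by 1.47 ± 0.20 (adjusted p = 1.61e-08). Atf4 stood at 171, 147, 171, 151 and 143 CPM against 186 to 270 CPM and fell by 0.72 ± 0.16 (adjusted p = 0.0003). The Trem2 libraries were below every control for both genes. Ddit3, at 20.9 to 27.5 CPM, overlapped the controls, with a difference of -0.12 ± 0.17 (adjusted p = 0.663).

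The messages of the serine synthesis enzymes each fell with Trem2, Phgdh by 1.46 ± 0.28 (adjusted p = 3.84e-05), Psat1 as above and Psph by 0.58 ± 0.16 (adjusted p = 0.00666). Asns fell by 0.93 ± 0.21 (adjusted p = 0.000535), Gpt2 by 0.51 ± 0.18, Slc7a1 by 0.84 ± 0.26, Slc7a5 by 0.97 ± 0.34 and Trib3 by 0.86 ± 0.26. The members that rose were Nupr1, at 7.69 to 13.8 CPM against 1.85 to 4.67 CPM without overlap (1.31 ± 0.28, adjusted p = 0.000294), and Vldlr (1.25 ± 0.28, adjusted p = 0.000463). Vldlr levels of 5.13 to 13.6 CPM overlapped the 5.96 to 7.16 CPM of Rosa26, since the protocol term of the fit, -0.98 for Vldlr in Low-input libraries, enters this change.

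All 5 Trem2 libraries of day 13 are Low-input and 4 of the 5 Rosa26 libraries are Regular, so this comparison leans on the protocol term estimated from the other groups. Within Low-input libraries the only control is 1 Rosa26 library, assumed to vary like the other groups, and for Psat1 it stood apart from the other Rosa26 libraries (86.7 CPM, nearest 49.2). Against it 0 members were called higher and 6 lower, beside 893 of all genes. These were Psat1 (-1.79), Mthfd2 (-1.39), Atf3 (-1.38), Asns (-1.15), Cebpb (-1.03) and Gpt2 (-0.90), and with 1 control library they have no check by replicates. With no protocol term the changes of Trib3, Psph, Slc7a5 and Vldlr did not pass the test. Without Rosa26 replicates 2 and 5, 3 members were higher and 8 lower, beside 1681 of all genes called. Macrophage markers were higher for 3 of 8 and lower for 1, Ighm was higher (0.78), and 2 of 3 stromal markers (Col1a1 -3.21), 1 of 3 erythroid markers (Hbb-bt -2.75) and 1 of 15 brain-cell messages were lower. Their part in the result was not tested.

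At day 4, where 4 of 5 Trem2 libraries are Regular, 4 members were higher and 10 lower, 45.2% against 24.3% of all genes (11.4% higher and 12.9% lower), with a median of -0.29. Atf3 stood at 149, 114, 113, 85.3 and 87.0 CPM in Rosa26 and at 37.5, 40.7, 43.3, 36.6 and 26.3 CPM with Trem2, and fell by 1.57 ± 0.18 (adjusted p = 2.57e-10). Cebpb stood at 91.9, 71.9, 73.9, 64.3 and 89.9 CPM against 112 to 154 CPM and fell by 0.74 ± 0.11 (adjusted p = 6.86e-08). Atf4 stood at 254, 189, 207, 197 and 182 CPM against 257 to 425 CPM and fell by 0.69 ± 0.14 (adjusted p = 9.58e-05). None of these 3 genes overlapped the controls. Mthfd2 stood at 26.2, 30.2, 35.4, 33.7 and 49.8 CPM against 51.1 to 68.7 CPM and fell by 0.67 ± 0.12 (adjusted p = 2e-05). Trib3 stood at 2.77, 0.656, 3.44, 3.63 and 2.39 CPM against 4.11 to 7.40 CPM and fell by 1.33 ± 0.30 (adjusted p = 0.000337). Neither of these overlapped the controls. Slc7a1 stood at 12.4, 12.8, 16.9, 12.5 and 29.1 CPM against 29.0 to 41.7 CPM, where 1 library reached the lowest control, and fell by 1.03 ± 0.21 (adjusted p = 0.000101).

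Gdf15, Vldlr, Ddit4 and Sesn2 rose with Trem2 at day 4. Gdf15 stood at 202, 147, 141, 117 and 83.2 CPM against 49.6 to 75.7 CPM and rose by 0.98 ± 0.20 (adjusted p = 7.47e-05). Vldlr stood at 6.61, 9.52, 10.2, 14.2 and 11.5 CPM against 2.68 to 4.78 CPM and rose by 1.65 ± 0.27 (adjusted p = 1.03e-06). Both lay above every control. Ddit4 rose by 1.19 ± 0.27 (adjusted p = 0.000519) and Sesn2 by 0.52 ± 0.17 (adjusted p = 0.0182). Psat1 (-0.45 ± 0.14), Asns (-0.71 ± 0.21) and Xpot (-0.29 ± 0.10) were lower. Among Regular libraries the Asns change of -0.54 had an adjusted p of 0.101. Chac1 was lower (-2.15 ± 0.75, adjusted p = 0.0273) from 0, 0, 0.344, 0.330 and 0.398 CPM, that is a few counts in all, and this call was lost in several of the other settings. Ddit3 did not pass (-0.29 ± 0.15, adjusted p = 0.146). Brain-cell messages summed to 126 to 493 CPM in these Trem2 libraries and 131 to 171 CPM in Rosa26, with 13 of 15 tested genes of that list higher and none of the list at 0 throughout. All 3 erythroid markers were higher (6.98- to 11.6-fold), as were Ighm (0.39) and the stromal marker Sparc (1.99). Of 8 macrophage markers 5 were lower (Cd14 -1.39) and 2 higher (Mertk 0.88 and Lyz2 0.43). The part of these markers in the result was not tested.

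Between the days, the Trem2 effect was lower at day 13 for Psat1 (-1.22, adjusted p = 6.47e-05), Mthfd2 (-0.81, adjusted p = 0.00347) and Phgdh (-1.21, adjusted p = 0.031), 3 of 31 members (9.68%) against 7.95% of all genes (4% upward and 3.96% downward). For Atf4 the difference was -0.03 ± 0.21 (adjusted p = 0.959). Trem2- and Grn-targeted cells, set against each other, differed at 1 member higher and 10 lower at day 4 (15.2% of all genes called, 6.18% higher and 9.06% lower) and at 5 higher and 15 lower at day 13 (43.5%, 22.8% and 20.7%). Atf4 was lower with Trem2 by 0.71 on the log2 scale at day 4 (-0.71, adjusted p = 0.000104) and by 1.62 ± 0.15 at day 13 (-1.62, adjusted p = 1.27e-14), while Vldlr was higher by 1.89 and 2.52. Against Atp6v1a at day 13, where 40.5% of all genes differed (21% higher and 19.5% lower), 26 members were higher with Atp6v1a and 2 lower (Vldlr, -1.03, and Ddit4, -0.78), with Mthfd2 apart by 2.52 (adjusted p = 2.64e-25).

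**Figure D5:**
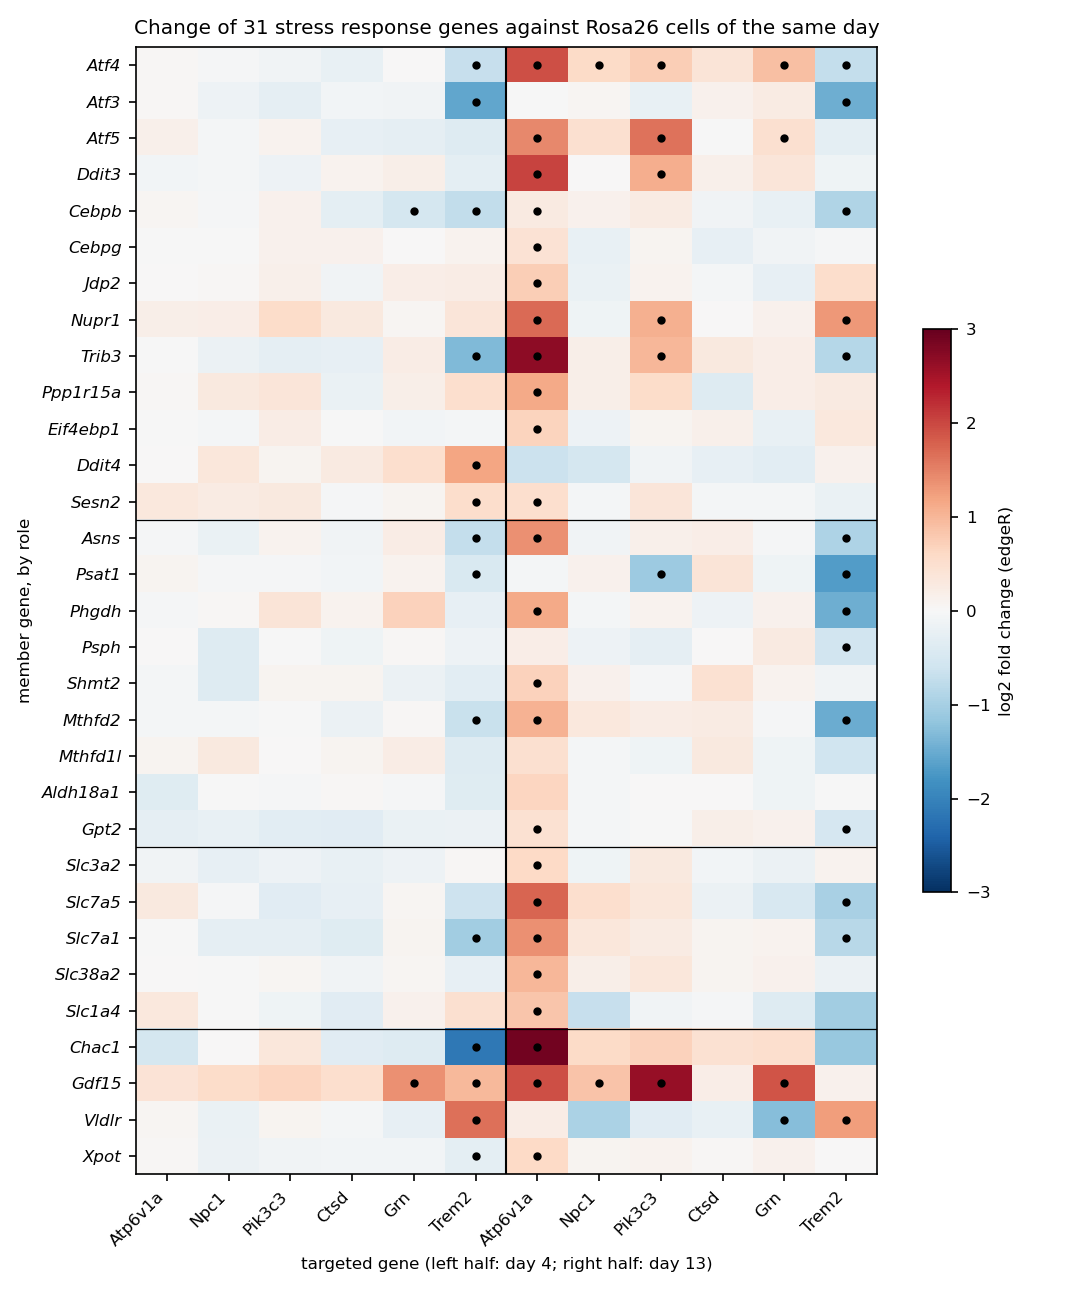
Log2 fold change against Rosa26 cells (colour) of the 31 tested members (rows) for the 6 targeted genes at day 4 and day 13 (columns), with a dot where the adjusted p was under 0.05. At day 13 dots mark 24 members for Atp6v1a, 7 for Pik3c3, 4 for Grn, 2 for Npc1, 0 for Ctsd and 14 for Trem2.

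Across the 6 targets at day 13, Ddit4, Mthfd1l and Aldh18a1 were called in none. Atf4 was called in 5 of the 6 targets, higher in 4 and lower with Trem2. Its mean level in CPM ran from 157 ± 13.6 (SD) with Trem2 through 227 ± 29.9 in Rosa26, 320 ± 57.8 with Ctsd, 372 ± 44.4 with Npc1, 409 ± 52.2 with Pik3c3 and 427 ± 127 with Grn to 960 ± 107 with Atp6v1a. The ranges of Ctsd, Npc1, Pik3c3 and Grn libraries overlapped, and those of Trem2, Rosa26 and Atp6v1a overlapped with none of the others except that Ctsd came down to 261 CPM, below the highest Rosa26 library at 270 CPM. Gdf15 had a positive change in all 6 targets on both days, called in 4 targets at day 13 and in 2 at day 4. These comparisons share the Rosa26 libraries of their day, so the directions are not independent of each other.

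The controls themselves changed between the days. In Rosa26 cells 4 members were higher and 6 lower at day 13 than at day 4, 32.3% against 30.6% of all genes (15% higher and 15.6% lower). Nupr1 fell by 1.29 ± 0.27 (adjusted p = 0.000102), from 6.08 to 10.3 CPM to 1.85 to 4.67 CPM without overlap. Atf4 fell by 0.50 ± 0.14 (adjusted p = 0.00423), Gdf15 by 0.72 ± 0.21 (adjusted p = 0.00633) and Ddit3 by 0.43 ± 0.15 (adjusted p = 0.0238), while Slc1a4 (1.24), Vldlr (1.05) and Ppp1r15a (1.00) rose. Without replicates 2 and 5 of day 13, 2 members were higher and 4 lower, beside 2899 of all genes called. Protocol differences of the members were of a like size for some genes. Low-input libraries gave 0.82 more Chac1 on the log2 scale, 0.60 more Psat1 and Atf5, 0.56 more Trib3, 0.31 more Ddit3 and 0.30 more Gdf15 than Regular ones, and Slc7a1 (-0.74) and Mthfd2 (-0.50) were lower, while Atf4 differed by 0.14 ± 0.08 (adjusted p = 0.124).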

How the data were processed

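The authors made 3' tag libraries with unique molecular identifiers, sequenced from 1 end for 75 bp, per the labels' protocols. For the deposited estimated counts, the submitters' processing notes name Salmon (version not given in the sources used here) and build GRCm39. Of the values above 0, 31.2% are not whole, and estimated counts were rounded before testing. Gene symbols came from the authors' deposited gene annotation, and log2 CPM values deposited by them served as a check. For the tested members these differed from the log2 of CPM computed here, after adding 0.6 CPM, by a median of 0.022. Levels printed as CPM are deposited estimated counts divided by the library total and not rounded. Times are in days as in the series design, where the sample labels have the same numbers as hours. RNA integrity numbers ran from 8.6 to 10.0 and were missing for 4 libraries.

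The software was edgeR 4.0.16 with limma 3.58.1 in R 4.3.3, and DESeq2 1.42.0 as an alternative. All 69 libraries entered 1 edgeR quasi-likelihood fit with TMM scaling, filterByExpr by group, 1 mean per group and a term for the library protocol. Tests were two-sided, Benjamini-Hochberg adjustment ran over the 12008 genes of each comparison, and the SE is the size of the change over the root of its F statistic. Fits that leave out a library kept the dispersion trend of the full fit. The fit was run on simulated counts with planted changes, drawn with the same spread for every gene and no protocol difference. These simulated counts cannot show how the fit handles the protocols. Libraries of a group differed by more than sampling noise (chi-square over its degrees of freedom, 1.701 or more). Ddit3 has a second gene ID with 9.4 counts over all libraries, not used here. The members, lists, tests and alternatives were chosen with earlier results of these data known. Any member could be named. Values per library are given for Atf4, Ddit3 and the called members with the lowest adjusted p, and of each further list the called genes with the lowest adjusted p and the eIF2 regulators are named. Alternatives were DESeq2, RLE scaling, no filter on low counts, no protocol term, each protocol alone, a replicate block, leaving out each library, and leaving out 2 Rosa26 libraries.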

Additional observations from a re-analysis of the deposited data

Results flagged for a closer look

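In 9 of 109 sets of 1 gene in 1 group, a library stood apart from the others of its group by Dixon's criterion, where chance gives about 1 in 20. In Rosa26 cells of day 13, replicate 5, the Low-input library of the group, held 55.69 CPM of Eif4ebp1 (nearest 32.81) and 86.7 CPM of Psat1 (nearest 49.23), and replicate 1 held 146.0 CPM of Atf3 (nearest 112.0). In Trem2-targeted cells, replicate 1 of day 4 (Low-input) held 90.86 CPM of Psat1 (nearest 56.41), replicate 5 of day 4 held 29.05 CPM of Slc7a1 (nearest 16.86) and replicate 4 of day 13 held 13.67 CPM of Asns (nearest 9.04). Replicate 1 of Atp6v1a at day 13 held 95.74 CPM of Gdf15 (nearest 185.8). Replicate 1 of Grn at day 4 held 65.85 CPM of Cebpb (nearest 89.23), and replicate 5 of Grn at day 13 held 5.263 CPM of Vldlr (nearest 2.162).

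The effect of a target differed between day 13 and day 4, by the interaction test of the edgeR fit, for 29 combinations of a member and a target. For Atp6v1a the log2 differences were 3.42 for Chac1, 2.69 for Trib3, 2.11 for Ddit3, 1.9 for Atf4, 1.54 for Nupr1, 1.53 for Gdf15, 1.47 for Slc7a5, 1.4 for Asns, 1.39 for Slc7a1, 1.29 for Atf5, 1.16 for Phgdh, 1.09 for Mthfd2, 0.98 for Slc38a2, 0.74 for Shmt2, 0.73 for Gpt2, 0.69 for Slc3a2, 0.67 for Eif4ebp1 and 0.56 for Xpot. For Pik3c3 they were 1.97 for Gdf15, 1.53 for Atf5, 1.27 for Trib3, 1.24 for Ddit3, 0.83 for Atf4 and -1.04 for Psat1. For Grn they were 0.87 for Atf4 and 0.76 for Atf5, and for Trem2 -1.22 for Psat1, -1.21 for Phgdh and -0.81 for Mthfd2. At day 13 the groups mix library protocols and at day 4 they hardly do, so these differences rest on the protocol term. Fits of Regular libraries alone were made for the targets other than Trem2. For Atp6v1a 16 members were called, beside 1076 of all genes, and for Grn 1 (Phgdh, not Atf4 or Atf5), beside 1180. For Pik3c3, with 1 Regular library of day 13, the median member change was 0.24. No such fit could be made for Trem2, whose day 13 libraries are all Low-input, nor for any target among Low-input libraries. There the part of the protocol was not tested.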

How the results depend on the processing

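Of the counts of members called in 26 comparisons, 472 recomputed values stayed within 1.5 times the main count and 23 did not. The 472 include values of 0 where the main count was also 0, and refits that leave out only 1 library. With no filter on low counts, 1 member in place of 0 was called for Npc1, Pik3c3 and Ctsd at day 4 (Gdf15, changes 0.55, 0.63 and 0.47), for Ctsd at day 13 and in the change of the Npc1 and Ctsd effects (Atf4, 0.41, 0.67 and 0.66). Among Low-input libraries the counts were 12 for Atp6v1a, 0 for Npc1 and 6 for Trem2 at day 13, and Gpt2 with Atp6v1a turned to -0.0091. Among Regular libraries they were 0 for Npc1 at day 13, 1 for the Grn change, 16 for Atp6v1a against Npc1 and 6 for Atp6v1a against Pik3c3. With no protocol term they were 4 for Npc1 and 11 for Pik3c3 at day 13, 5 for Rosa26 between days and 7 for Trem2 against Grn at day 4. Without Rosa26 replicates 2 and 5 of day 13 they were 1 for Npc1 and 6 for Rosa26 between days. Leaving out 1 library, the Npc1 count at day 13 ran from 1 to 3 (1 without Rosa26 replicate 5) and the Trem2 change between days from 2 to 5 (5 without Rosa26 day 13 replicate 1). Subsets of 1 protocol hold fewer libraries; otherwise the cause was not tested. Same-numbered libraries were not treated as pairs, since the correlations of their deviations were low, from -0.101 (Pik3c3, day 4) to 0.2 (Atp6v1a, day 13). Their median was above that of differently numbered libraries for every target but Pik3c3. For Atp6v1a at day 13 it was 0.073 against -0.026. With the replicate block, Npc1 at day 13 had 4 members called, the Trem2 change between days had 5, and none of the 77 named gene calls was lost. Of those 77, DESeq2 lost 2, RLE scaling 1, no filter 9 and no protocol term 15. Without Rosa26 replicates 2 and 5 of day 13, 13 of the 61 calls that use those controls were lost. Leaving out 1 library at a time, 49 of 770 refits lost the call. Calls were also lost within each protocol alone, where some groups hold 1 library, so no count is given. Depth limits Chac1 and the 6 untested members most.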
